A study of Mus musculus with 6 samples.

Results

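Mature Ccr2 monocytes were the liver immune cells selected on the measured levels of 10 genes in single-cell RNA-seq matrices. A cell belonged to them when the mean deposited score of Ccr2, Ms4a4c and Ms4a6c was above 0.8, that of F13a1, Ass1 and Pclaf at or below 1, that of Trem2 and Ccl24 at or below 1.5, and that of Cd3e and Cd3g below 1. The first 3 genes mark monocytes, the next 3 were used to leave out immature and cycling cells, Trem2 and Ccl24 macrophages, and the Cd3 genes T cells. The rule took 1581 of 23008 cells: 116 of 1803 in adjacent tissue (AT) Ctrl, 16 of 542 in AT Tim3-KD, 610 of 5106 in micrometastasis Ctrl, 367 of 5142 in micrometastasis Tim3-KD, 251 of 4913 in macrometastasis Ctrl and 221 of 5502 in macrometastasis Tim3-KD. The levels of these 10 genes are therefore given as a description only.

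The cells came from Balb/c mice injected into the heart with 4T07 cells, a mouse mammary tumour line. Ctrl tumour cells carried the pLKO.1 vector with a scramble sequence, and Tim3-KD tumour cells an shRNA against Tim3 (gene symbol Havcr2). Liver pieces with sides of 5 mm were cut at day 3 (AT, and micrometastasis) or at day 12 (macrometastasis), and their CD45+ cells were sorted. Every group had 1 library, made from 2 pooled mice, so no comparison below has a replicate check or a test, and every interval is a 95% interval that covers counting error only. The knockdown was in tumour cells, which the sort leaves out, so these libraries do not check it.

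Classical monocytes leave the bone marrow through the chemokine receptor Ccr2, carry high Ly6c on their surface in mice, and reach inflamed tissue and tumours from the blood. There they can become macrophages or cells resembling dendritic cells, and many gain MHC class II, which presents peptides to CD4 T cells. A second blood type with low Ly6c and high Cx3cr1 patrols the vessel wall.

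The label was checked against a list of 12 monocyte markers, of which 11 were in the AT and micrometastasis matrices and all 12 in macrometastasis. Their summed level in the selected cells was 8013 to 9532 UMIs per 1000000 (CPM) in AT and micrometastasis and 15033 to 15285 CPM in macrometastasis, where Lyz2 was also measured. In all other cells of the same libraries it was 1175 to 2196 CPM and 3980 to 4449 CPM. The list includes Ccr2, Ms4a4c and Ms4a6c, which chose the cells and made up 12.0% to 36.1% of its sum. Without these 3 genes the sum was 5219 to 6508 CPM against 964 to 1778 CPM in AT and micrometastasis, and 12991 to 13232 CPM against 3770 to 4089 CPM in macrometastasis. None of the markers was at 0 in any library. The selected cells held a median of 7800 to 22778 UMIs, and 344153 to 6595310 UMIs in all. A level of 3 UMIs, used as the floor, corresponded to 0.455 CPM in micrometastasis Ctrl and to 8.72 CPM in the 16 cells of AT Tim3-KD. Of 22948 distinct barcodes, 59 occurred in more than 1 library, among them those of 6 selected cells.

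Other cell types were present among the selected cells to a different extent at each site. A cell was counted as carrying another type when it had UMIs of at least 2 genes of a short list for that type. In macrometastasis 44 Ctrl and 19 Tim3-KD cells carried B cell genes, and 23 and 35 carried Kupffer cell genes. Without all such cells, 81, 11, 543, 324, 140 and 120 cells remained in the order of libraries above, so that 89.0% and 88.3% remained in micrometastasis but 55.8% and 54.3% in macrometastasis. The neutrophil list was used there without Prtn3 and Mmp8, a choice made after values were seen. With both genes on it, 42.6% of micrometastasis Ctrl and 59.9% of Tim3-KD cells carried at least 2 neutrophil genes, and 323 of 610 and 140 of 367 cells remained. Of 12 B cell genes measured, the summed level in the selected cells was 1554 CPM in macrometastasis Ctrl and 648 CPM in Tim3-KD. Without those cells it was 118 and 38.0 CPM. Kupffer cell genes, 12 of 12 measured, summed to 703 and 433 CPM in micrometastasis Ctrl and Tim3-KD, and to 2307 and 6413 CPM in macrometastasis. Plasmacytoid dendritic cell genes summed to 854 and 849 CPM in macrometastasis Ctrl and Tim3-KD, beside 405 and 297 CPM in all other cells. Without the cells that carried another type's genes they summed to 284 and 367 CPM. The T cell gene Cd3e was at 0 in 5 of the 6 libraries, which the rule favours. No gene of the tumour epithelial list was in a matrix. Many results below, but not all, are given with and without the cells that carried another type's genes. "Without other-type cells" stands for that second set.

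At all 3 sites the share of sorted cells that were mature Ccr2 monocytes was lower in the Tim3-KD library, but in micrometastasis the direction depended on whether neutrophils were counted. In micrometastasis it was 11.9% (exact interval 11.1 to 12.9) in Ctrl and 7.14% (6.45 to 7.88) in Tim3-KD, a difference of -4.81 points (-5.96 to -3.66). In AT the shares were 6.43% (5.35 to 7.67) and 2.95% (1.70 to 4.75), which differed by -3.48 points (-5.24 to -1.38). In macrometastasis they were 5.11% (4.51 to 5.76) and 4.02% (3.51 to 4.57), a difference of -1.09 points (-1.92 to -0.277). A share of a sort also moves with every other cell type. Neutrophil-lineage cells, with UMIs of at least 3 genes of a neutrophil list, were 2616 of 5106 sorted cells in micrometastasis Ctrl and 3953 of 5142 in Tim3-KD. When they were left out of the denominator and all selected monocytes were kept, the micrometastasis share was 22.4% in Ctrl and 25.9% in Tim3-KD, which turns the direction (3.48 points). The neutrophil definition also took in 38.5% and 62.7% of the selected monocytes, and when these were left out as well the shares were 15.1% and 11.5%. In AT, where neutrophil-lineage cells were 1223 of 1803 and 23 of 542, the difference was -14.8 points with all selected cells kept and -5.79 without the overlapping ones. In macrometastasis it was -0.495 points with all kept. With a rule on UMIs in place of scores the difference was -2.16 points in micrometastasis and -0.802 points in AT.

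**Figure D1:**
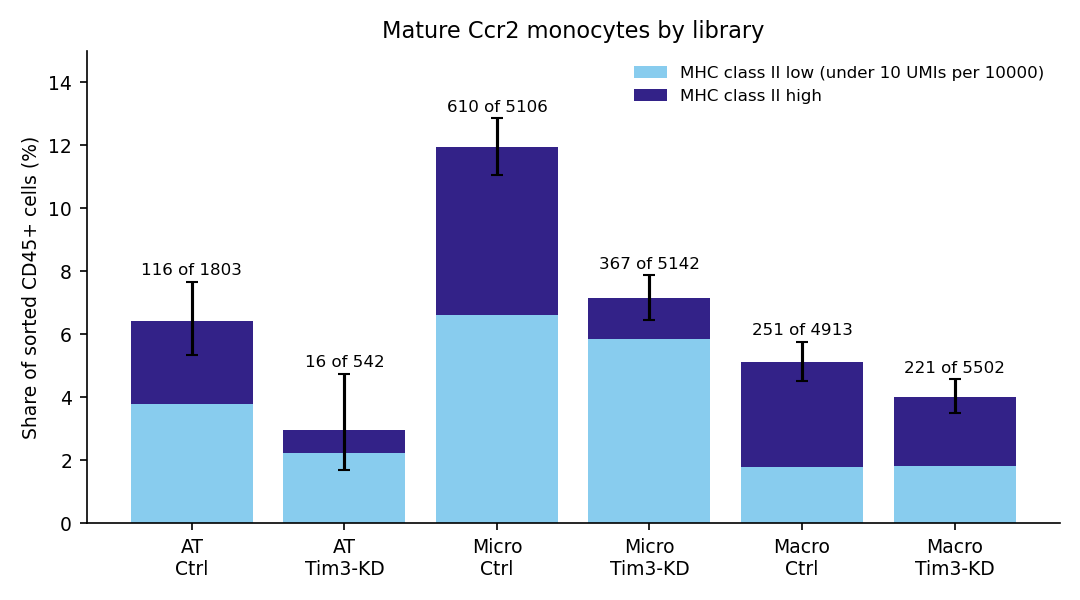
Share of sorted CD45+ cells (%) that were mature Ccr2 monocytes in each of the 6 libraries, divided into cells low and high in MHC class II (under, or at least, 10 UMIs of H2-Aa, H2-Ab1 and H2-Eb1 per 10000 UMIs). Lines are exact 95% intervals of the whole share and the numbers are cells. The micrometastasis Ctrl bar reaches 11.9% and the Tim3-KD bar 7.14%, with low parts of 6.62% and 5.85% and high parts of 5.33% and 1.28%.

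As read from the values, the scores were scaled separately at each site, so the same score stood for other UMI numbers. The selected cells held a median of 40 and 45.5 UMIs of Ccr2, Ms4a4c and Ms4a6c in AT (Ctrl and Tim3-KD), 34 and 24 in micrometastasis, but 11 and 19 in macrometastasis. Shares are therefore not on one scale across sites. At the cut itself the 20 cells just inside in micrometastasis Ctrl had mean scores of 0.812 to 0.914 and a median of 12.5 UMIs of the 3 genes, and the 20 just outside 0.588 to 0.752 and 7. In macrometastasis Ctrl the 20 cells just inside held a median of 3.5 UMIs and those just outside 3. Fn1 and S100a4, which are high in classical monocytes, were at 6.82 and 68.2 CPM in those macrometastasis cells just inside and at 251 and 575 CPM in the micrometastasis Ctrl cells just inside. In the Tim3-KD libraries the order was the other way for Fn1, with 301 CPM in macrometastasis and 74.7 CPM in micrometastasis, while S100a4 was at 442 and 1061 CPM. The median there was 7 and 11 UMIs of the 3 genes.

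The Ccr2, Ms4a4c and Ms4a6c cut alone was passed by 1069 cells of micrometastasis Ctrl (20.9% of its sorted cells) and by 794 of micrometastasis Tim3-KD (15.4%). The remaining cuts divided the cells past this cut differently in both libraries. In Ctrl 57.1% (54.0 to 60.1) of them were mature Ccr2 monocytes, 18.99% (16.7 to 21.5) lay above the cut on F13a1, Ass1 and Pclaf (the immature side) and 23.8% (21.2 to 26.4) above the cut on Trem2 and Ccl24 (the macrophage side). In Tim3-KD 46.2% (42.7 to 49.8) were mature, 43.7% (40.2 to 47.2) on the immature side and 9.45% (7.50 to 11.7) on the macrophage side. Of all sorted cells, the immature side made up 3.98% in Ctrl and 6.75% in Tim3-KD, and the macrophage side 4.97% and 1.46%. In macrometastasis the immature side also held a larger part of the cells past the first cut in Tim3-KD, 48.2% against 29.8%, and the mature cells a smaller one, 39.2% against 59.9%. The macrophage side went the other way from micrometastasis, with 9.40% in Tim3-KD against 5.49% in Ctrl. In AT it also did, with 30.4% (7 of 23 cells) against 6.87%. AT Ctrl had 124 cells on the immature side among 262, and AT Tim3-KD 0 among 23, with an exact interval that reaches 14.8%.

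**Figure D2:**
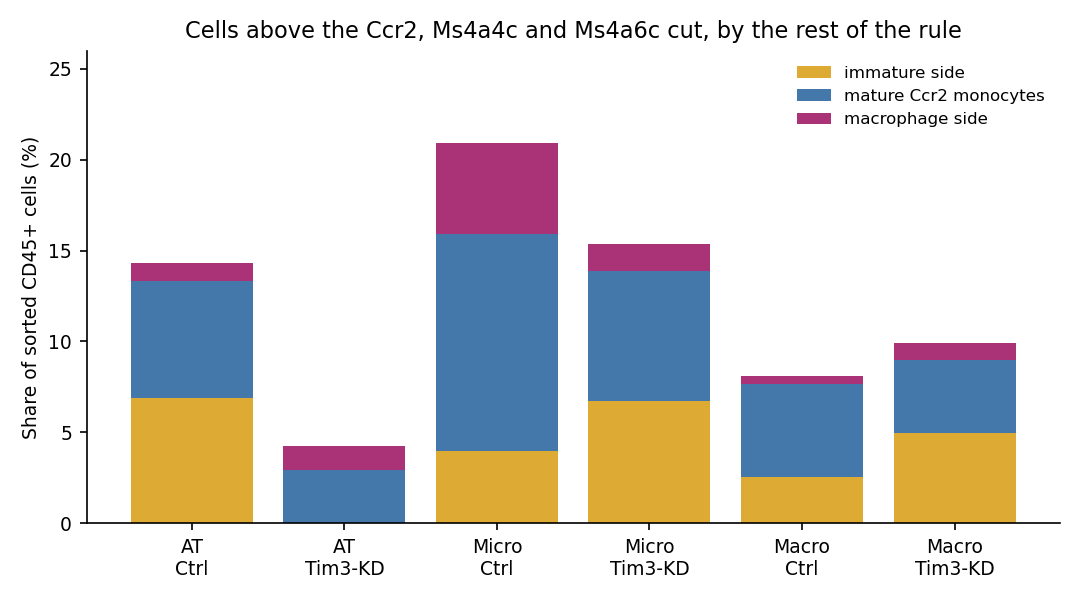
Share of sorted CD45+ cells (%) that passed the cut on Ccr2, Ms4a4c and Ms4a6c in each library, divided by the rest of the rule into the immature side, the mature Ccr2 monocytes and the macrophage side. Cells above the T cell cut are not drawn. In micrometastasis the immature part was 3.98% in Ctrl and 6.75% in Tim3-KD, and the macrophage part 4.97% and 1.46%.

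Genes that the rule did not use also differed between the mature cells and both sides. Over the immature side of micrometastasis, MHC class II genes took the first 4 places by mean ratio: H2-Eb1 was 5.80-fold higher in Ctrl and 17.9-fold higher in Tim3-KD, and H2-Aa 4.75-fold and 17.6-fold. Saa3, an acute phase protein, was 2.88-fold and 13.1-fold higher, and Pltp, a phospholipid transfer protein, 6.48-fold and 9.28-fold. The 10 genes furthest below the immature side included many of dividing cells. Top2a, which untangles DNA in replication, was 25.3-fold lower in Ctrl and 31.0-fold lower in Tim3-KD, and Mki67, a marker of cycling cells, 30.1-fold and 25.9-fold. Against the macrophage side, Spp1 (osteopontin) was 6.05-fold and 12.3-fold lower, and the mannose receptor Mrc1 3.67-fold and 10.0-fold. The granule genes Mpo and Ctsg, made early in the myeloid lineage, were 4.72-fold and 3.00-fold above the macrophage side in Ctrl. There 3 of the mature cells held 83.8% and 69.3% of their UMIs. Without other-type cells the mature cells were at 3.15 and 6.83 CPM, beside 5.78 and 7.59 CPM in all cells of the macrophage side. Pclaf and Trem2 chose these groups, so genes expressed together with them also follow the choice.

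Among the markers, Ccr2 was at 744 and 773 CPM in AT (Ctrl and Tim3-KD), 899 and 830 CPM in micrometastasis and 542 and 678 CPM in macrometastasis. Ms4a4c, a membrane protein of the same family as Ms4a6c, was at 683 and 607, 839 and 714, and 455 and 549 CPM in the same order. Ms4a6c was at 1368 and 1232, 1453 and 1481, and 804 and 1067 CPM. These 3 genes chose the cells, so how their levels compare between Ctrl and Tim3-KD of a site is not a result.

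Thbs1 (thrombospondin 1, a matrix protein that binds integrins and activates TGF-beta) was not in the rule. It was at 187 CPM in AT Ctrl, 244 in AT Tim3-KD, 277 in micrometastasis Ctrl, 547 in micrometastasis Tim3-KD, 261 in macrometastasis Ctrl and 368 in macrometastasis Tim3-KD. The Tim3-KD library was the higher one at each site. In micrometastasis the ratio was 1.97 (1.85 to 2.11), and in macrometastasis 1.41 (1.27 to 1.57). Vcan (versican, a matrix proteoglycan) was at 77.8 and 11.6 CPM in AT, 187 and 323 CPM in micrometastasis and 83.6 and 124 CPM in macrometastasis. It was thus higher in Tim3-KD in both lesions and lower in AT, where the Tim3-KD value rests on 4 UMIs. Fn1 (fibronectin) was at 301 and 564, 565 and 966, and 334 and 273 CPM. Csf1r, the receptor for the growth factor of macrophages, was at 260 and 366, 296 and 204, and 278 and 403 CPM. Ly6c2 was at 761 and 932 CPM in micrometastasis. A further feature joining Ly6c1 and Ly6c2 held 0 UMIs in the whole of AT Ctrl and of micrometastasis Ctrl but 25578 UMIs in micrometastasis Tim3-KD, so Ly6c levels cannot be set side by side between libraries.

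**Figure D3:**
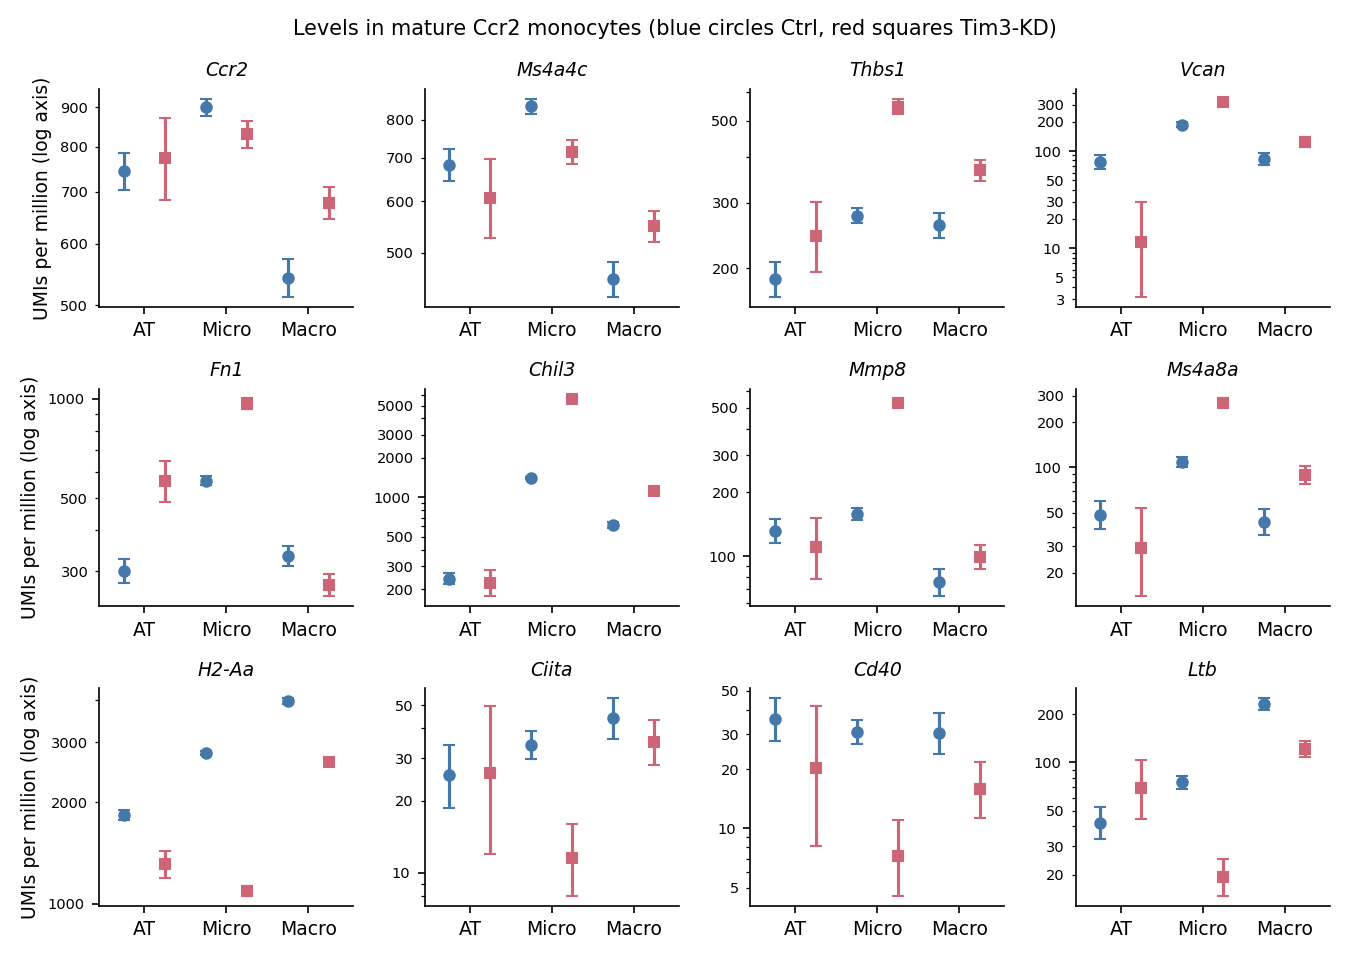
Level of 12 genes in mature Ccr2 monocytes of each library, in UMIs per 1000000 on log axes that differ between panels. Circles are Ctrl and squares Tim3-KD, each a single library, and bars are exact 95% Poisson intervals. Chil3 stands at 5581 CPM in micrometastasis Tim3-KD against 1398 CPM in Ctrl, and Ciita at 11.5 against 34.1 CPM.

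The mature Ccr2 monocytes fell into cells with and without MHC class II. The MHC class II molecule is a pair of chains (H2-Aa with H2-Ab1, and H2-Ea with H2-Eb1) that H2-DM loads with peptide, and the transactivator Ciita switches its genes on. A cell was called high when it held at least 10 UMIs of H2-Aa, H2-Ab1 and H2-Eb1 per 10000, a split chosen after the values were seen. In micrometastasis 272 of 610 Ctrl cells were high (44.6%, exact interval 40.6 to 48.6) but 66 of 367 Tim3-KD cells (18.0%, 14.2 to 22.3), and 37.7% and 74.7% had no UMI of the 3 genes at all. In macrometastasis 163 of 251 Ctrl cells (64.9%) and 122 of 221 Tim3-KD cells (55.2%) were high, and in AT 48 of 116 (41.4%) and 4 of 16. Between 5 and 20 UMIs per 10000, near the split, lay 9.34% of the cells of micrometastasis Ctrl and 3.27% of Tim3-KD, 6.37% and 11.3% in macrometastasis, and 13.8% and 18.8% (3 of 16 cells) in AT. Set against all sorted cells of micrometastasis, the high cells were 5.33% (4.73 to 5.98) in Ctrl and 1.28% (0.994 to 1.63) in Tim3-KD, and the low cells 6.62% (5.95 to 7.34) and 5.85% (5.23 to 6.53). Without neutrophil-lineage cells in the denominator, and with all selected cells kept (a base chosen after seeing the data), the high cells were 9.98% and 4.65% and the low cells 12.4% and 21.2%. The high cells were thus the lower ones in Tim3-KD on both bases, while the direction of the low cells depended on the denominator. In macrometastasis the high cells were 3.32% and 2.22% and the low cells 1.79% and 1.80%. Without other-type cells 42.5% and 17.0% of the micrometastasis cells were high, 51.4% and 40.0% in macrometastasis, and 30.9% and 1 of 11 in AT. The high cells of macrometastasis were then 1.47% and 0.872% of sorted cells. With Prtn3 and Mmp8 on the neutrophil list, 59.1% and 34.3% of the remaining micrometastasis cells were high. With the rule on UMIs the difference was -17.7 points instead of -26.6 in micrometastasis, and in AT it was 6.91 points instead of -16.4.

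**Figure D4:**
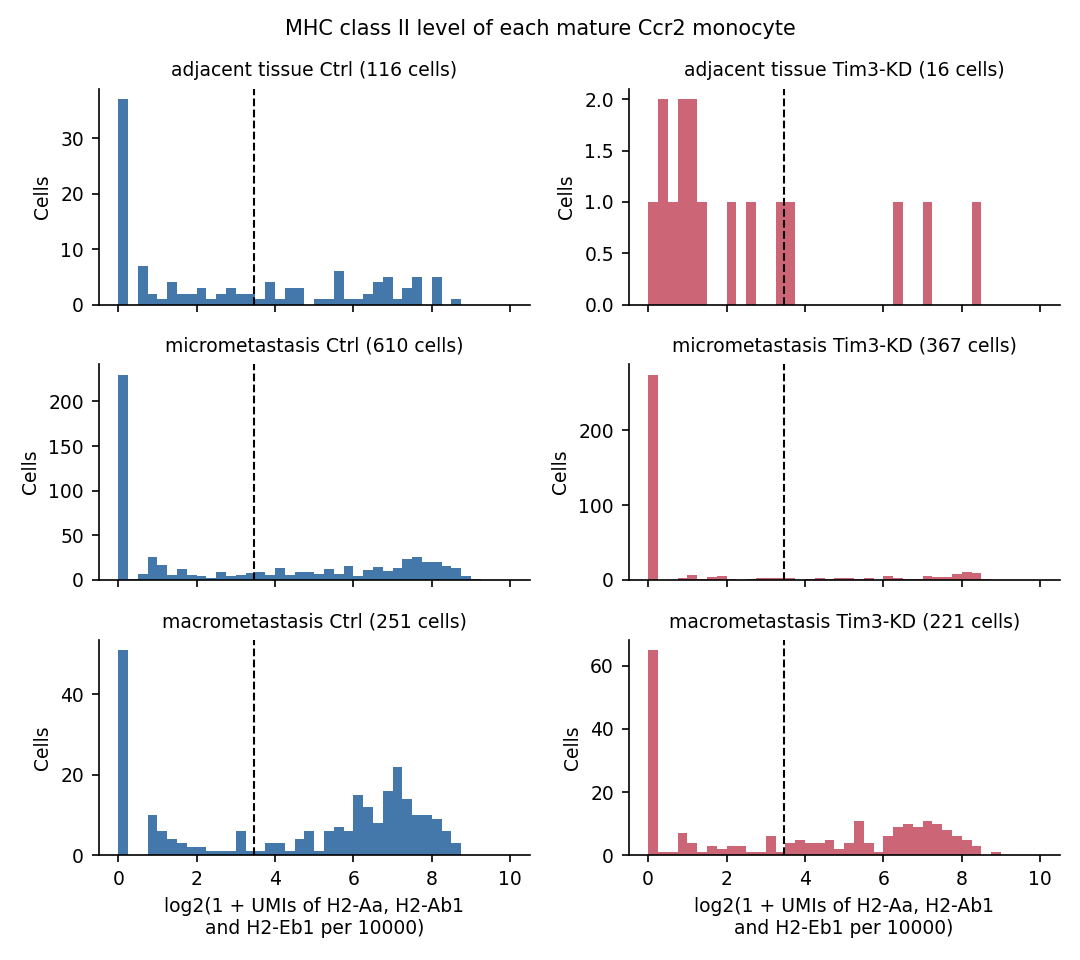
Number of mature Ccr2 monocytes by their level of MHC class II, as log2(1 + UMIs of H2-Aa, H2-Ab1 and H2-Eb1 per 10000), 1 panel per library. The dashed line marks 10 UMIs per 10000. Cells without any UMI stand at the left, 230 of 610 in micrometastasis Ctrl and 274 of 367 in Tim3-KD, and a separate hill of high cells lies to the right of the line in both lesions.

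The starts of 3 MHC class II genes are shown with that of Chil3, which differed in the other direction in micrometastasis, since the class II promoters share short elements. Sequences are from RefSeq on GRCm38.p6, 250 bases before to 50 after the start of the gene, written in the direction of transcription. Capitals mark the core of the Y box (GATTGG, or CCAATC on the other strand) and a form of the X box (TAGNNACNGATG), the sites at which class II enhanceosome factors are known to sit. They cover chr17:34287774-34288073 (minus strand) for H2-Aa, chr17:34305617-34305916 (plus strand) for H2-Eb1, chr17:34152941-34153240 (plus strand) for H2-DMb1 and chr3:106167515-106167814 (minus strand) for Chil3.
H2-Aa: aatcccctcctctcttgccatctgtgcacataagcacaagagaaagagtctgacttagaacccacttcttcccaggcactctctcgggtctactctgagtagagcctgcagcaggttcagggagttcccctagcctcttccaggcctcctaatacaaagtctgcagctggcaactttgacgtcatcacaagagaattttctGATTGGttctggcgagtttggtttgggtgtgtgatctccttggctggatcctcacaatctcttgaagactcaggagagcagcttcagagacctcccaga
H2-Eb1: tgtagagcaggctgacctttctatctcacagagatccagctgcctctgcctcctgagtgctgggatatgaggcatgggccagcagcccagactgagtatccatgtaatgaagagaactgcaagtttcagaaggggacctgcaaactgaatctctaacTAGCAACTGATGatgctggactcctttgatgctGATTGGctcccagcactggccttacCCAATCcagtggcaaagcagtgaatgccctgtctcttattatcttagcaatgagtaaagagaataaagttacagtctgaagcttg
H2-DMb1: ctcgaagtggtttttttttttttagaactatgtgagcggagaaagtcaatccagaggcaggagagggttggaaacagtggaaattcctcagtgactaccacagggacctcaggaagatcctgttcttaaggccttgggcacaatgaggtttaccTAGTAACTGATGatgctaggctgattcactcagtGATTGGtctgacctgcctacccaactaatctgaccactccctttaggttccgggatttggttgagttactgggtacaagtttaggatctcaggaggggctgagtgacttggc
Chil3: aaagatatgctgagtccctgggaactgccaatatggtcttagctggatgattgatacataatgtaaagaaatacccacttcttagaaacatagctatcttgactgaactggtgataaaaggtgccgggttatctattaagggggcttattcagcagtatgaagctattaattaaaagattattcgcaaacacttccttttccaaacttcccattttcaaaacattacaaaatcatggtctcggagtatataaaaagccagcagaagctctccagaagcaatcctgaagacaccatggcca

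The Y box core began 49 bases before the start of H2-Aa, 60 and 35 bases before that of H2-Eb1 and 62 bases before that of H2-DMb1. The X box form began 93 bases before H2-Eb1 and 96 bases before H2-DMb1. Both strands were searched and no 2 matches overlapped in these windows. Of the 13 genes on the antigen presentation list 8 had a promoter in the table, and 6 of these 8 held the Y box core, against 16.1% of 32851 promoters. The X box form was in 2 of the 8 and in 0.155% of all promoters. A match to these letters is a description of the sequence and not a measured site.

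Cells low and high in MHC class II differed in the genes that the split did not use. In micrometastasis Ctrl, Chil3 (a chitinase-like protein of monocytes, also known as Ym1) was at 2315 CPM in the low cells and 239 CPM in the high cells. The low cells were also above the high cells for Fn1 (836 against 223 CPM), Vcan (269 against 82.7), Thbs1 (383 against 143) and the collagenase gene Mmp8 (256 against 34.3). Ccr2 itself was at 1024 against 740 CPM. The high cells were above the low ones for genes of macrophages: the complement gene C1qa was at 535 against 4.89 CPM and the efferocytosis receptor Axl at 44.9 against 0.815 CPM. Only some high cells carried them, with a UMI of C1qa in 41 of 272 and of Axl in 57 of 272. The high cells also held more of the dendritic cell lectins Cd209a (54.9 against 5.16 CPM) and Clec10a (63.5 against 18.5) and more Ciita (66.2 against 8.69). In micrometastasis Tim3-KD the same split gave Chil3 at 6427 CPM in the low cells and 1281 in the high cells, and C1qa at 40.2 and 518 CPM, with a C1qa UMI in 12 of 66 high cells. Fn1 was at 1119 CPM in the low and 190 CPM in the high cells of that library, Vcan at 374 and 64.04 CPM, and Cd209a at 1.97 and 100.1 CPM. A Cd209a UMI was found in 29 of 272 high cells in Ctrl and 14 of 66 in Tim3-KD. Chil3, Fn1 and Vcan were thus higher in the low cells of both libraries, and the summed levels of Cd209a and C1qa, each carried by a minority of cells, in the high cells.

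Setting Tim3-KD beside Ctrl asks what is different in liver immune cells when the injected tumour cells carry less Tim3. In micrometastasis the mature Ccr2 monocytes of the Tim3-KD library held more Chil3, Mmp8 and Il1r2 and less MHC class II, Cd40 and Ltb. Of 2024 genes with at least 50 UMIs over both libraries, 74 (3.66%) were at least 2-fold higher in Tim3-KD and 121 (5.98%) at least 2-fold lower. Without other-type cells 54 of the 74 and 107 of the 121 were still past 2-fold in the same direction, and over all 2024 genes 3.56% were then higher and 7.41% lower. The median over all these genes was -0.044 on the log2 scale.

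Chil3 was the most abundant of the 195 genes past 2-fold. It was at 5581 CPM in micrometastasis Tim3-KD and 1398 CPM in Ctrl, 3.99-fold higher (3.89 to 4.10), and had a UMI in 85.0% and 63.8% of cells. With every cell thinned to 3000 UMIs, 83.9% of Tim3-KD and 50.7% of Ctrl cells held one, against 5.00% and 1.97% of B cells, which should lack it and show the level of free RNA. The median UMIs were 7800 and 10213.5 in the monocytes and 4762.5 and 3597 in the B cells. Thinning left out 6 and 4 of the monocytes. The 3 cells with most Chil3 held 3.00% and 6.03% of it, so the difference lay in many cells. In the rest of each library Chil3 was at 874 and 517 CPM.

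The classical monocyte list had 9 genes tested in micrometastasis, of which 2, Chil3 and Ms4a8a, were at least 2-fold higher in Tim3-KD and 0 lower, with a median of 0.30. The list holds Ccr2, which chose the cells, and Ly6c2, whose levels cannot be set side by side. Over its other 7 genes the count was the same and the median 0.77. Ms4a8a, a membrane protein of the Ms4a family, was at 269 against 109 CPM. Among the 10 genes of the matrix and clotting list 1 was at least 2-fold higher and 1 lower, with a median of 0.52, or 0.48 without F13a1, a gene of the rule. The higher one was Mmp8, which is also on the neutrophil list, at 528 against 158 CPM (3.34-fold, 3.08 to 3.61). It had a UMI in 71.4% of Tim3-KD and 46.7% of Ctrl cells, and the part of neutrophil RNA in its difference was not tested. Thbs1 was just under 2-fold. Mmp14, a membrane-bound protease, went the other way at 4.94 against 18.8 CPM. Crispld2, a secreted protein that binds lipopolysaccharide, was at 32.6 against 6.06 CPM and the efferocytosis receptor Mertk at 27.0 against 6.97 CPM. The Ly6c-low list had 10 genes tested, with 3 lower, 0 higher and a median of -0.34. Cx3cr1, the fractalkine receptor, was at 19.1 against 54.3 CPM and Adgre4, an adhesion receptor of patrolling monocytes, at 8.23 against 25.2 CPM.

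Of 11 genes tested on the antigen presentation list 7 were at least 2-fold lower in Tim3-KD micrometastasis and 0 higher, with a median of -1.23. H2-Aa was at 1094 against 2790 CPM, with a ratio of 0.392 (0.378 to 0.407), H2-Ab1 at 900 against 2176 CPM and H2-Eb1 at 700 against 1642 CPM. H2-DMb1, which helps load the peptide, was at 120 against 294 CPM and Ciita at 11.5 against 34.1 CPM. Cd40, through which T cells activate antigen-presenting cells, was at 7.24 against 30.9 CPM. Cd80, a ligand of CD28, was at 21.7 against 20.0 CPM, a ratio of 1.09 (0.796 to 1.47). After thinning, H2-Aa was found in 19.7% of Tim3-KD and 48.0% of Ctrl cells. The B cells, which express it, were 104 and 677 in number, and H2-Aa in all cells other than the selected ones was at 217 and 1088 CPM. The part of free RNA in the difference was not tested.

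Cytokine genes and their receptors differed in both directions in micrometastasis. Of 18 genes tested on the inflammatory list 2 were at least 2-fold higher and 0 lower, with a median of -0.13, and without other-type cells 1 was higher and 4 lower. Tnf was at 88.3 against 36.5 CPM, a ratio of 2.41 (2.02 to 2.89), but after thinning it was found in 18.3% of Tim3-KD monocytes against 10.0% of B cells of that library. Il1b was at 963 against 1757 CPM, a ratio of 0.548 (0.526 to 0.570). Its decoy receptor Il1r2, which neutrophils also express, was at 329 against 99.8 CPM. After thinning it was found in 49.3% of Tim3-KD and 18.6% of Ctrl monocytes, against 8.0% and 2.96% of B cells (unthinned 73.8% and 38.0%, against 11.5% and 4.73%). In all other cells of the libraries Il1r2 was at 391 and 445 CPM, and the part of free RNA in its difference was not tested. The receptor antagonist Il1rn was at 19.4 against 54.6 CPM. Saa3, high in inflamed liver, was at 2241 against 911 CPM. Ltb, the membrane partner of lymphotoxin alpha, was at 19.4 against 75.2 CPM. The growth factor gene Hbegf was at 7.57 against 46.1 CPM, and Calhm6, an ion channel gene of activated myeloid cells, at 4.94 against 39.6 CPM.

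Havcr2, the gene of Tim3, was measured in the host monocytes, which did not carry the shRNA. In micrometastasis its level was 22.1 CPM with Tim3-KD tumour cells against 45.0 CPM with Ctrl, and the ratio 0.493 (0.370 to 0.641). After thinning it was found in 5.82% of Tim3-KD and 13.4% of Ctrl cells, against 1.00% and 0.592% of B cells. In macrometastasis it was at 27.3 against 33.9 CPM, where the interval of the ratio (0.574 to 1.13) holds 1, and in AT at 17.4 against 20.6 CPM.

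Of the other lists in micrometastasis, 25 interferon-stimulated genes had a median of -0.08 with 1, Slfn4, at least 2-fold higher (50.4 against 22.9 CPM) and 0 lower. Without other-type cells 1 was higher and 2 lower. Of 7 hypoxia and glycolysis genes 3 were lower and 0 higher, with Vegfa, the vascular growth factor, at 30.3 against 70.5 CPM and the oxygen sensor Egln3 at 2.31 against 9.10 CPM. Of 13 macrophage differentiation genes outside the rule 4 were lower and 1 higher, and 6 lower and 1 higher without other-type cells. The neutrophil list had 8 of 13 genes higher and 1 lower, with a median of 1.07. Its summed level in the monocytes was 1627 CPM in Tim3-KD and 728 CPM in Ctrl, beside 14863 and 10939 CPM in all other cells of the libraries. Without other-type cells 4 of these genes were higher. Cell cycle genes other than Pclaf of the rule had a median of 0.59, which was -0.53 without other-type cells. Among genes with at least 100 UMIs, the 3 highest ratios were those of Gzma, a granzyme of lymphocytes, Cd5l, a Kupffer cell protein, and Ccl5, a chemokine. In these genes 3 cells held 99.2%, 97.8% and 75.7% of the Tim3-KD UMIs. The neutrophil genes Stfa2, Stfa2l1 and Asprv1 were at 29.6 against 6.52, 50.1 against 13.2 and 44.8 against 10.5 CPM, and at log2 ratios of 0.03, 0.17 and 0.96 without other-type cells. At the low end stood also Ltf and Igkc, genes of neutrophils and B cells. Their log2 ratios were -3.51 and -3.31, and -0.99 and -3.45 without other-type cells. Rab3il1, Kti12, Rgl1 and Ccdc85b had log2 ratios of -2.35, -1.99, -1.93 and -1.90.

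**Figure D5:**
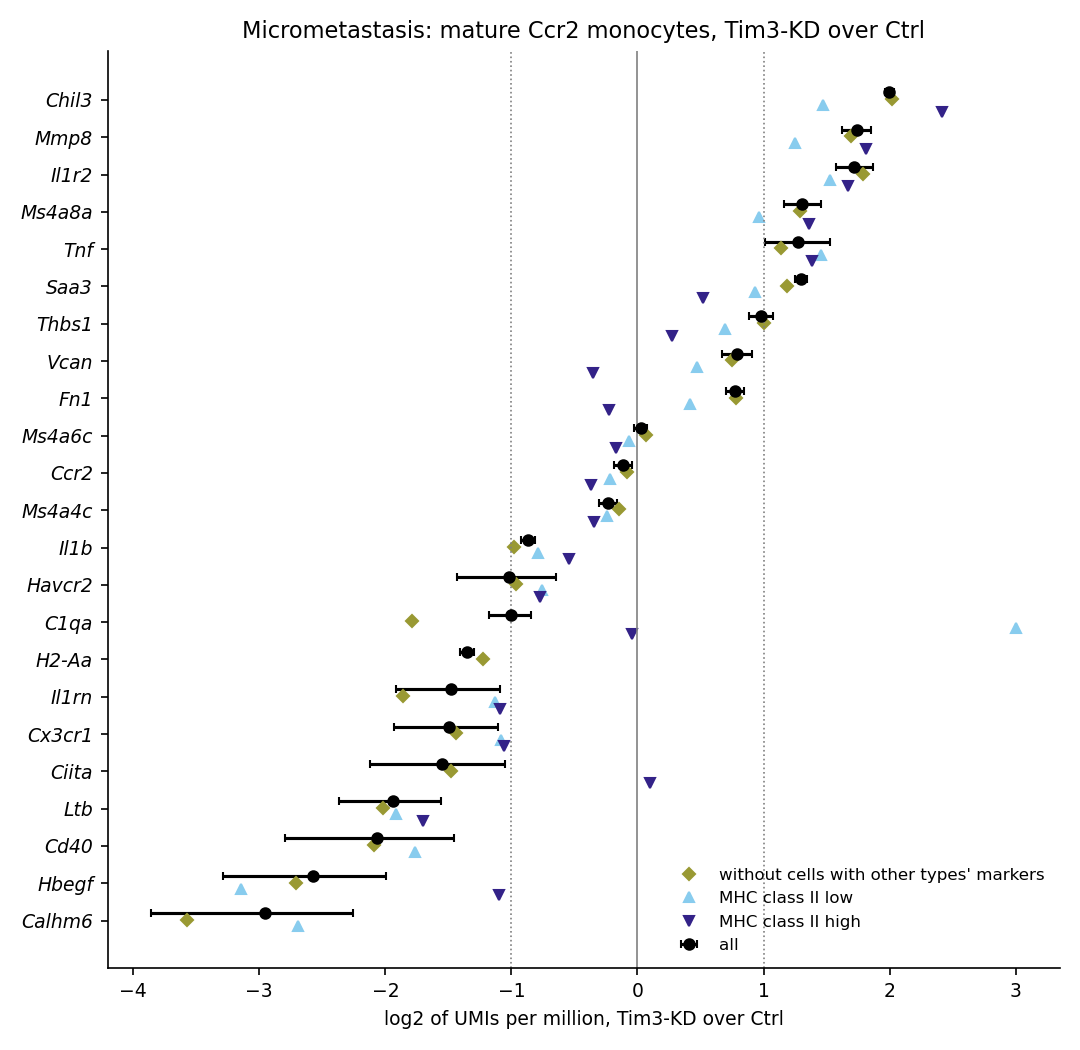
Tim3-KD over Ctrl in mature Ccr2 monocytes of micrometastasis, as log2 of the ratio of UMIs per 1000000, for 23 genes. Circles with exact 95% intervals are all cells, diamonds the cells without markers of other types, and triangles the cells low (pointing up) or high (pointing down) in MHC class II, drawn where both libraries held at least 10 UMIs. Dotted lines mark 2-fold. Chil3 lies at 2.00 and Calhm6 at -2.96. Ciita lies at -1.55 in all cells and at 0.10 in the high cells.

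Because fewer Tim3-KD cells were high in MHC class II, the genes were also compared within each class. Chil3 was 2.78-fold higher (2.704 to 2.85) in Tim3-KD among the low cells and 5.35-fold higher (4.80 to 5.96) among the high cells. Mmp8 was 2.37-fold and 3.51-fold higher, Il1r2 2.88-fold and 3.18-fold, and Tnf 2.74-fold and 2.62-fold. For Cd40 the ratios were 0.294 and 0.340 (0.126 to 0.677 in the high cells), for Ltb 0.265 and 0.308, for Calhm6 0.154 and 0.141 (0.0248 to 0.362), for Cx3cr1 0.472 and 0.479, and for Havcr2 0.593 and 0.585. These genes thus differed in the same direction in both classes. Ciita had a ratio of 1.07 (0.716 to 1.52) and C1qa of 0.971 (0.846 to 1.11) in the high cells, so both intervals of counting error hold 1, though 3 cells held 72.6% of the C1qa UMIs of the Tim3-KD high cells. In the low cells C1qa was at 40.2 CPM in Tim3-KD and 4.89 CPM in Ctrl, but it was carried by 12 of 301 (3.99%) and 12 of 338 cells (3.55%), and 3 cells held 90.2% of its UMIs in Tim3-KD. Fn1 and Vcan were 1.34-fold and 1.39-fold higher in the low cells, and had ratios of 0.856 (0.680 to 1.06) and 0.785 (0.518 to 1.12) in the high cells.

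In macrometastasis Chil3 was again higher and H2-Aa lower in the mature Ccr2 monocytes of Tim3-KD, while Il1r2 and Tnf were lower. Whether these ratios differ from those of micrometastasis was not tested. Of 1488 genes tested 98 (6.59%) were at least 2-fold higher in Tim3-KD and 71 (4.77%) lower, but without other-type cells 77 of 787 genes with enough UMIs passed, 32 higher and 45 lower. Chil3 was at 1119 against 613 CPM, a ratio of 1.83 (1.71 to 1.95), Ms4a8a at 89.3 against 43.7 CPM, F10 (clotting factor X) at 131 against 79.3 CPM and Mmp8 at 99.1 against 75.5 CPM. H2-Aa was at 2621 against 3982 CPM, a ratio of 0.658 (0.638 to 0.680), and 0 of 10 antigen presentation genes passed 2-fold, with a median of -0.58. The directions of Chil3, Mmp8, H2-Aa and Cd40 (15.9 against 30.4 CPM) were those of micrometastasis. Il1r2 was at 109 against 181 CPM and Tnf at 29.4 against 51.9 CPM, both the other way round. After thinning, Tnf was found in 9.59% of Tim3-KD and 9.54% of Ctrl cells. Il1r2 was found in 14.2% and 19.1% (34.4% and 33.5% unthinned). Hbegf was at 55.9 against 35.6 CPM, and lower in Tim3-KD without other-type cells (-0.64 on the log2 scale).

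The Ly6c-low list differed in macrometastasis, with 3 of 11 genes lower in Tim3-KD and 0 higher, a median of -0.51, and 6 lower without other-type cells, where the median was -1.11 and 10.8% of the same 1488 genes were lower. Fabp4, a fatty acid binding protein, was at 4.08 against 41.2 CPM and the fatty acid transporter Cd36 at 8.57 against 48.9 CPM. The chemokine genes Cxcl13 and Cxcl10 were at 150 against 5.15 CPM and at 17.9 against 125 CPM, and 3 cells held 60.6% of the Cxcl13 UMIs in Tim3-KD and 64.7% of the Cxcl10 UMIs in Ctrl. All 12 Kupffer cell genes were at least 2-fold higher in Tim3-KD, and 4 higher and 1 lower without other-type cells. Of 11 B cell genes 7 were lower. Of 17 macrophage differentiation genes outside the rule 8 were higher, and 2 without other-type cells. Among genes with at least 100 UMIs, the 10 highest were Camp, Ltf, Marco, Ngp, Cxcl13, Mpo, Ctsg, H1f5, Top2a and Ube2c. They include neutrophil granule, Kupffer and cell cycle genes. In each of them 3 cells held 60.6% to 99.7% of the Tim3-KD UMIs. Without other-type cells the log2 ratios of Ltf, Ngp, Top2a and Ube2c were -1.46, -0.79, -0.77 and -0.30. They rest on 0 against 1, 4 against 8, 3 against 6 and 11 against 15 UMIs (Tim3-KD against Ctrl). Such sums are below the minimum set for counting a gene, so no direction is read from them. At the low end were Hmga1, part of whose UMIs may stand under a feature joined with Hmga1b, and Ugt1a7c, a glucuronosyltransferase, at 5.30 against 57.0 CPM. Eno3, an enolase, was at 13.1 against 42.9 CPM and the signalling adaptor Stap1 at 35.5 against 99.05 CPM. Fcmr and Igkc, genes of B cells, and Stfa2 were also among the 10 lowest. The part of cells of other types in these ratios was not tested beyond leaving them out.

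AT Tim3-KD had 16 cells, so its values rest on few cells. Of 1239 genes tested 143 (11.5%) were at least 2-fold higher and 146 (11.8%) lower, and 72 and 116 of 752 without other-type cells, which left 11 cells. In the Ly6c-low list 7 of 10 genes were higher and 0 lower, with a median of 1.39. Cx3cr1 was at 183 against 50.01 CPM with a UMI in 12 of the 16 cells against 36.2% of Ctrl cells (37.5% and 13.9% after thinning, against 1.47% and 0 of B cells), and Treml4, a receptor of patrolling monocytes, at 134 against 20.0 CPM. Cd36 was at 131 against 3.33 CPM, with 93.3% of it in 3 cells. Saa3 and Wfdc21, a secreted whey acidic protein, held 0 UMIs in AT Tim3-KD, against 301 and 167 CPM in Ctrl, at least 34.6-fold and 19.1-fold lower with a floor of 3 UMIs in the library. Mpo, Fabp5 and Serpinb1a were also at 0, against 70.02, 53.9 and 47.2 CPM, and Serpinb1a was higher in Tim3-KD with the rule on UMIs (0.51 on the log2 scale). Beside these genes, of which Mpo is a neutrophil granule gene, the neutrophil list in all other cells summed to 157 CPM in AT Tim3-KD and 9257 CPM in AT Ctrl, and its part in the zeros was not tested. The immediate early gene Jun was at 773 against 129 CPM. Chil3 was at 224 against 240 CPM, a ratio whose interval (0.722 to 1.19) holds 1, but all of its Tim3-KD UMIs lay in 3 cells and 55.2% of Ctrl cells had one. Vsig4, a Kupffer cell receptor, was at 131 CPM, all of it in 1 cell. C1qa, C1qb and Cd5l, also genes of Kupffer cells, had log2 ratios of 4.16, 4.08 and 4.02 with 95.2% to 96.4% of their UMIs in 3 cells, and 4 of the 16 cells carried Kupffer cell genes. Beside the count of 0 antigen presentation genes past 2-fold, of 9, 5 were lower without other-type cells, where 16.4% of the same 1239 genes were lower.

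Between sites the Ctrl libraries were compared, the same libraries as above. Site goes with day for macrometastasis, and the scores of each site appear to have been scaled apart. From AT to micrometastasis 158 of 1661 genes (9.51%) were at least 2-fold higher and 47 (2.83%) lower. The middle of all genes lay at 0.13 on the log2 scale (trimmed mean), and relative to it 114 were higher and 62 lower. Ccl7, a ligand of Ccr2, was at 35.2 CPM in micrometastasis and 1.67 CPM in AT, 4.05 on the log2 scale relative to that middle. It rests on 3 UMIs in AT and was lower in micrometastasis with the rule on UMIs (-1.34). Chil3 was at 1398 against 240 CPM, Saa3 at 911 against 301 CPM, Il1b at 1757 against 812 CPM and Havcr2 at 45.0 against 20.6 CPM. Relative to the middle these were 2.41, 1.47, 0.99 and 0.99 on the log2 scale. Of 12 macrophage differentiation genes other than Trem2 and Ccl24 of the rule, 7 were higher and 0 lower, with a median of 1.61. Without other-type cells it was 2.32, with 8 higher. C1qa was at 239 against 13.3 CPM, with a UMI in 8.69% and 1.72% of cells. Without other-type cells C1qa was at 276 against 0.821 CPM, the AT value being 1 UMI. Beside this, 3 of 4 Kupffer cell genes, a list that shares C1qa with the macrophage list, were higher (median 3.59) and all 6 B cell genes lower, of which 1 was lower and 1 higher without other-type cells. The part of such cells was not tested beyond leaving them out. Spp1 was at 67.5 against 14.4 CPM. Of 16 inflammatory genes 8 were higher and 2 lower. The early granule gene Elane was lower, at 13.6 against 190 CPM, with 93.9% of its AT UMIs in 3 cells, and higher with the rule on UMIs (4.13 on the log2 scale).

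From micrometastasis to macrometastasis 305 of 1337 genes (22.8%) were higher in Ctrl and 66 (4.94%) lower. Here the middle of all genes lay at 0.40, and relative to it 181 were higher and 136 lower. Without other-type cells 91 of 1096 were higher and 51 lower. Of 7 matrix and clotting genes outside the rule 5 were lower and 0 higher, and 3 lower without other-type cells. F10 was at 79.3 against 234 CPM and Vcan at 83.6 against 187 CPM. Ccl7 was at 4.29 against 35.2 CPM and Spp1 at 10.7 against 67.5 CPM. The Ly6c-low list had 5 of 10 genes higher and 0 lower, and 6 without other-type cells. Fabp4 was at 41.2 against 2.12 CPM, Treml4 at 71.2 against 22.1 CPM and Adgre4 at 76.8 against 25.2 CPM. H2-Aa was at 3982 against 2790 CPM, which is 0.11 on the log2 scale relative to the middle. The other genes named here kept their direction relative to it. All 11 B cell genes, all 7 NK cell genes and 9 of 11 Kupffer cell genes were also at least 2-fold higher in macrometastasis, with 6, 6 and 6 left without other-type cells. The same held for 8 of 9 plasmacytoid and 5 of 6 conventional dendritic cell genes, with 7 and 5 left. The different reach of the score cut at that site and the change from day 3 to day 12 cannot be told apart here.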

How the data were processed

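The deposited values are scores per gene and cell. Their steps of scaling are not given in the sources used here, and from the values each gene was taken to be scaled over both libraries of a site and capped. Per the labels and the study's methods, reads were trimmed (Trim Galore 0.4.3), aligned to GRCm38 with STAR 2.7.7a and counted as UMIs over exons and introns. Cells with over 1000 UMIs and under 20% mitochondrial reads were kept, doublets with a scrublet score over 0.15 were removed before deposit, and variable genes were chosen. The matrices hold 4486, 2669 and 2643 features for AT, micrometastasis and macrometastasis, written with a dot for a hyphen. Of these 128, 42 and 48 join several genes, and 39, 9 and 11 of the joined ones are at 0 in one library of a site and at 20 or more UMIs in the other.

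Scores were turned back into UMIs, and 99.997% to 99.9998% of the values came within 0.05 of a whole number. The step was run on simulated data of 2669 genes, scaled by the same assumed steps, where it returned 100% of uncapped UMIs. That run checks the code and cannot show whether the deposited scores follow those steps. Levels are summed UMIs per 1000000 of all UMIs of the cells. Ratios have 0.5 added to each sum and exact conditional intervals, and a gene counts as past 2-fold with at least 50 UMIs over both libraries. Shares have exact (Clopper-Pearson) intervals. No test between groups could be made with 1 library per group, and 0 columns of per-sample values were left unused.

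The text names the genes of the rule and its markers, the highest and lowest genes of lists by role, the 10 highest and 10 lowest ratios in each lesion among genes with at least 100 UMIs, and the 5 or 6 highest and lowest of the other comparisons, and the 10 genes that differed most from each side of the rule. Mitochondrial, ribosomal protein, haemoglobin, variable receptor and predicted genes were not ranked. Further list genes were named after their values were seen. The rule, the members and the lists were chosen with earlier results of these data known. The MHC class II split and the set without other-type cells, for which Prtn3 and Mmp8 were taken off the neutrophil list since many of the monocytes carry them, were chosen after values were seen. Python 3.11.15, NumPy 2.4.6, SciPy 1.17.1 and Matplotlib 3.10.9 were used. Results of some genes that the naming rule takes are not reported here.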

Additional observations from a re-analysis of the deposited data

Results flagged for a closer look

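In 4 genes the Tim3-KD over Ctrl ratio of mature Ccr2 monocytes passed 2-fold downwards in micrometastasis and upwards in macrometastasis, with all cells and without other-type cells. With 1 library per group the difference between both sites was not tested. C1qa, a chain of complement C1q, had a log2 ratio of -1.01 in micrometastasis (119 against 239 CPM) and 1.44 in macrometastasis (1440 against 532 CPM), and -1.79 and 1.06 without other-type cells. In micrometastasis few cells carried it, 24 of 367 in Tim3-KD. Within the MHC class II-high cells the ratio was 0.971 (0.846 to 1.11), and in the low cells Tim3-KD was the higher library (40.2 against 4.89 CPM), with 3 cells holding 72.6% and 90.2% of its Tim3-KD UMIs in the high and low cells. The lower level over all cells was therefore not found within either class. C1qc, another chain of C1q, had -1.10 (50.1 against 108 CPM) and 1.56 (716 against 243 CPM), and -2.00 and 1.24 without those cells. In micrometastasis its ratio was 0.855 (0.685 to 1.05) in the high cells, and in the low cells it was at 19.7 against 2.99 CPM. Cd81, a tetraspanin, had -1.38 (11.2 against 29.4 CPM) and 1.10 (151 against 70.3 CPM), and Mmp14, a membrane-bound protease, -1.89 (4.94 against 18.8 CPM) and 1.56 (23.3 against 7.72 CPM). Beside these values, Kupffer cell genes summed to 703 and 433 CPM in micrometastasis (Ctrl and Tim3-KD) and to 2307 and 6413 CPM in macrometastasis, and their part in the result was not tested beyond leaving out the cells that carried them.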

How the results depend on the processing

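No paired analysis was possible because each group has 1 library, and for the same reason no replicate could be left out. Depth limits the AT values most, where 3 UMIs in the 16 Tim3-KD cells are 8.72 CPM. The difference in share between Tim3-KD and Ctrl kept its direction under the alternatives run, except in micrometastasis when neutrophil-lineage cells were left out of the denominator with all selected cells kept (chosen after seeing the data). There it was 3.48 points, and in AT -14.8. On that denominator the difference of the MHC class II-high cells was -5.33 points in micrometastasis and -6.63 in AT (-4.04 and -1.92 of all sorted cells), and that of the low cells 8.81 in micrometastasis, -8.18 in AT and 0.607 in macrometastasis (-0.766, -1.56 and 0.0082 of all sorted cells). It moved by more than counting error in AT to -0.802 points with the rule on UMIs, -0.816 without cells of the planned doublet lists and -5.79 without neutrophil-lineage cells, selected or not, and in micrometastasis to -2.16, -3.60 and -3.54. In macrometastasis no alternative moved it so far. The share of cells high in MHC class II moved with the rule on UMIs, to 6.91 points in AT, where the sign turned, and to -17.7 in micrometastasis.

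Counts of genes past 2-fold moved by more than 1.5 times as follows. With at least 200 UMIs they were 91 in micrometastasis, 58 in macrometastasis, 44 in AT, 77 for Ctrl micrometastasis over AT and 112 for Ctrl macrometastasis over micrometastasis, and with no minimum 435, 480, 1490, 423 and 657, against 195, 169, 289, 205 and 371. Without the planned doublet list cells they were 64 in macrometastasis, 72 in AT and 115 for Ctrl macrometastasis over micrometastasis, and without other-type cells (chosen after seeing the data) 77, 188 and 142. For Ctrl macrometastasis over micrometastasis a cut at 1 gave 239 and the rule on UMIs 165. In macrometastasis the split of higher and lower genes was 50 and 96 with the rule on UMIs, and 79 and 99 with a mean over cells.

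Of 626 log2 ratios of named genes past 2-fold, recomputed under the alternatives, 561 stayed past 2-fold, 600 kept their direction and 26 turned. In micrometastasis Asprv1 was -0.061 and Stfa2 -0.22 without doublet list cells, Gzma -0.43 and Ltf 0.29 with the rule on UMIs, and Cd5l -0.27 with that rule, -0.14 without doublet list cells and -0.58 without other-type cells. The last of these Cd5l ratios rests on 2 UMIs in Tim3-KD and 8 in Ctrl. In macrometastasis Camp was -5.67 and -0.068, Ltf -4.29, and Ngp -4.75 and -1.001, with the rule on UMIs and without doublet list cells. Without other-type cells Ltf was -1.46, Ngp -0.79, Top2a -0.77 (-1.16 without doublet list cells) and Ube2c -0.30. The ratios of these genes without other-type cells rest on 0 against 1, 4 against 8, 3 against 6 and 11 against 15 UMIs (Tim3-KD against Ctrl). That is too few to read a direction from. In AT Serpinb1a was 0.51 with the rule on UMIs. For Ctrl micrometastasis over AT, that rule gave Ccl5 0.88, Ccl7 -1.34, Elane 4.13 and Ube2c 2.93, leaving out doublet list cells Ccl5 1.71 and Igkc 3.74, and leaving out other-type cells Igkc 0.83. For Ctrl macrometastasis over micrometastasis Mpo was 0.37 without doublet list cells. Except where the cells were left out by construction, the cause was not tested.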

Other observations

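Some abundant genes of the lists above were not named there. Among chemokine genes picked after their values were seen, Ccl9 was at 693 CPM in micrometastasis Tim3-KD and 571 CPM in Ctrl, Ccl6 at 1131 and 941 CPM, and Ccl2, the main ligand of Ccr2, at 332 and 343 CPM, while Ccl7, another ligand of it, was at 21.4 and 35.2 CPM. Ccr1, a receptor for several of these chemokines, was at 180 and 177 CPM. Ifi27l2a, an interferon-stimulated gene, was among the most abundant, with 2723 against 2603 CPM in the micrometastasis libraries (Ctrl first), with a UMI in 95.9% and 94.0% of cells. After thinning to 3000 UMIs it was found in 91.9% and 89.5% of the monocytes, beside 58.0% and 51.0% of B cells. Of 21 interferon-stimulated genes with a promoter in the RefSeq table, out of 30 listed, 12 held the response element core GAAANNGAAA, against 3.44% of all promoters.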
